A study of Zea mays with 9 samples.

Results

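The cytosolic ribosomal proteins build the ribosomes that translate nuclear messenger RNAs. Their genes were taken as those whose protein entry in the authors' annotation names a 40S, 60S or 60S acidic ribosomal protein, or a small or large ribosomal subunit protein, leaving out chloroplast and mitochondrial proteins and nuclear export factors. This gave 416 of the 39755 genes in the count table, 198 of the small (40S) and 218 of the large (60S) subunit. RNA came from leaves of maize (Zea mays), cultivar Golden Bantam. Leaf 2 of 8-day-old seedlings was cut and infiltrated under a vacuum of 60 mbar. The liquid was 2 mM salicylic acid (group SA), 5 µM of the peptide Zip1 (group Zip1) or water with 0.1% DMSO (group mock), and all leaves were sampled 6 h later. Salicylic acid is a plant immune hormone, and Zip1 is a maize signalling peptide that is released from a larger precursor protein. Each group had 3 libraries, 9 in all. Whether the SA and Zip1 liquids also held DMSO, and whether the libraries of a group came from separate plants, the labels do not say, so the p-values measure the spread between these libraries, which may be technical.

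The small subunit reads the messenger RNA and the large subunit joins the amino acids. Cells need about as much of each ribosomal protein as of the next, and in plants most of these proteins are encoded by several near-identical genes. The acidic proteins P0, P1, P2 and the plant protein P3 form the stalk of the large subunit, which recruits elongation factors. S27a and L40 are made as fusions to ubiquitin and are released from it by cleavage. L10 (also called uL16) is among the last proteins to join the large subunit, near the site of peptide bond formation. In Arabidopsis, L10 is also a target of the antiviral receptor kinase NIK1. In this text "SA" means the treatment, except in "40S ribosomal protein SA", a small-subunit protein.

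Library totals ran from 28840453 to 38794412 counts in genes. Of the 416 genes, 53 had no count in any library, 50 had counts too low to be tested, and 313 were tested (136 small-subunit, 177 large-subunit). The tested genes held 99.95% of all counts of the 416. The entries named 80 proteins, here called families, with a median of 4 genes per family. A ribosomal Pfam domain was annotated for 323 genes and not for the other 93, of which 72 had no Pfam entry and 21 another one. The 93 were kept by their entry names, and whether they encode ribosomal proteins was not tested. Leaf markers, which are genes of carbon fixation and light harvesting, held between 95400 and 175300 CPM, the counts of a library brought to one fixed library size, and 53 of the 59 had counts. Dividing-cell markers held between 1099 and 1408 CPM. These are whole leaves, so fewer cells of one type and less RNA per cell cannot be told apart in any value that follows. The genome build behind the coordinates is not given in the sources used here.

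In mock leaves the families were present at similar levels. Summed over its genes, the median family had 67.8 CPM per kilobase, that is, CPM on scaled library sizes divided by gene length in kilobases. The middle 50% of families lay between 55.1 and 88.1 on this scale, and 74 of the 80 lay within 2-fold of the median. Families of both subunits lay across this range, as the plot of family levels in mock shows. In 48 families a single gene gave over 50% of the family level.

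**Figure D1:**
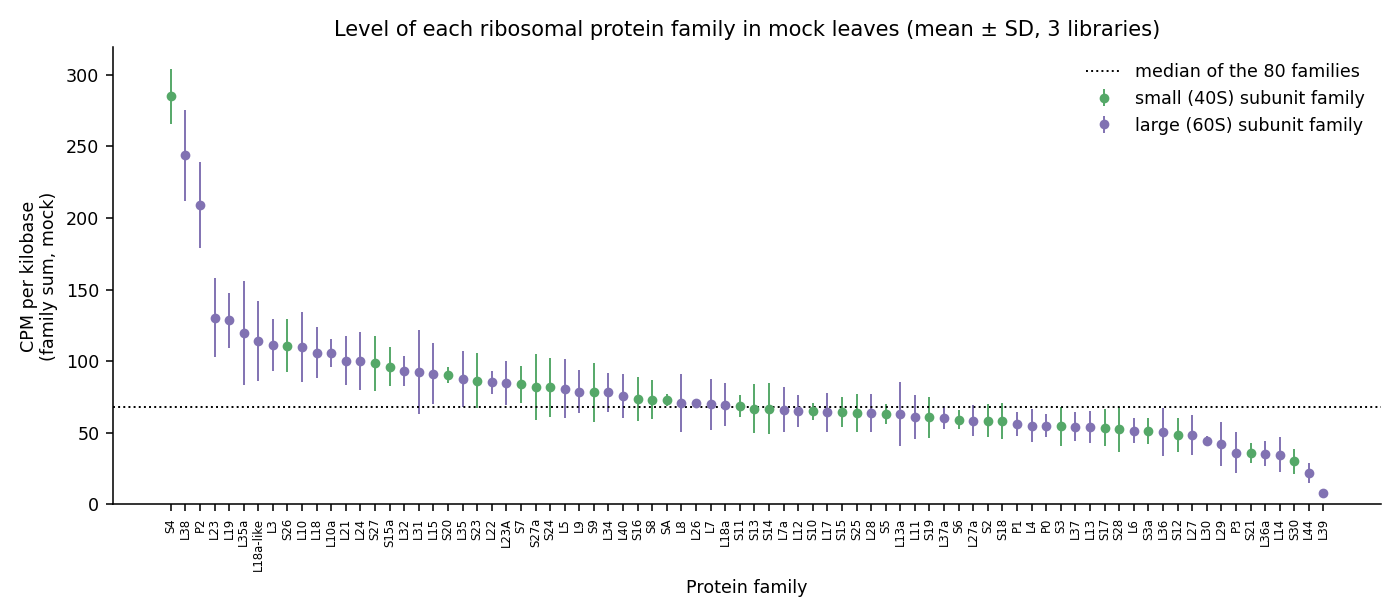
Summed level of each of the 80 ribosomal protein families in mock leaves, in CPM per kilobase (y axis), by protein family in falling order (x axis); points are means and bars SDs of 3 libraries, coloured by subunit. Most families lie near the median of 67.8 (dotted line), with S4, L38 and P2 far above it and L39 lowest at 7.75.

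The family at the upper end of this range stood apart for features of its annotation as well. The S4 family was highest at 285 ± 19.3 CPM per kilobase (SD, n = 3). It had 45 annotated genes, of which 28 were tested, 24 lay under 1 CPM per kilobase in mock and 24 carried no ribosomal Pfam domain. Genes without that domain gave 73.0% of the S4 level in mock. The most abundant of them was Zm00001eb273740 (chromosome 6, 100450346 to 100459747, plus strand), with no Pfam entry. Its normalised counts, which are counts scaled to the mean library size, were 2870, 2760 and 2033 in mock, 2009, 376.5 and 2383 in SA, and 1865, 1302 and 640.4 in Zip1. The Zip1 libraries were all below mock, and the 3 SA libraries alone spanned more than the group means did. In the fit over all 9 libraries without a block it passed in no comparison (lowest adjusted p = 0.587, edgeR's quasi-likelihood test with Benjamini-Hochberg adjustment). With the block in only the Zip1 and mock libraries it was called lower with Zip1 (-1.13, adjusted p = 0.0394).

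The other genes highest per kilobase in mock all encode large-subunit proteins. L38 gene Zm00001eb198420 had 226.7 ± 32.0 (SD, n = 3) CPM per kilobase, with an annotated length of 210 bases. The stalk protein gene P2B Zm00001eb348240 followed at 181.2 ± 29.1. L19-2 gene Zm00001eb160340 had 83.1 ± 5.98, L35a-1 gene Zm00001eb310700, annotated at 273 bases, had 82.2 ± 25.9, and L10a gene Zm00001eb039550 had 68.8 ± 13.4. None of these genes passed the test in any comparison. A level per kilobase depends on the annotated length, and the short lengths of L38 and L35a-1 raise theirs.

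With SA, the L10 family rose from a mean of 109.8 to 497.8 CPM per kilobase, above every other family. Both expressed genes of L10 rose over 4-fold. In edgeR's fit over all 9 libraries without a block, none of the other 311 tested ribosomal protein genes passed the threshold of an adjusted p under 0.05. Gene Zm00001eb049570 (chromosome 1, 253640205 to 253642954, plus strand) had 2676, 3166 and 3769 normalised counts in mock, 12280, 12840 and 20600 in SA, and 4854, 6181 and 4898 in Zip1. Every SA library was above every mock and Zip1 library, and every Zip1 library was above every mock library. The SA difference was 2.25 on the log2 scale (SE 0.24, adjusted p = 0.000344, edgeR's quasi-likelihood test with Benjamini-Hochberg adjustment over 23077 genes).

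Gene Zm00001eb219490 (chromosome 5, 20383271 to 20386038, minus strand) behaved alike. It had 3300, 3067 and 5336 normalised counts in mock, 11450, 13300 and 24490 in SA, and 5043, 5770 and 5541 in Zip1. The SA libraries were again all above the rest, while the Zip1 libraries overlapped with mock, whose replicate 3 was high. Its SA difference was 2.07 (SE 0.31, adjusted p = 0.00236). Both genes carry the Pfam domain of ribosomal protein L16p/L10e and overlap no other annotated gene. The third L10 gene, Zm00001eb150930, had no count in any library.

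The 2 calls compare with 6.22% of all tested genes called with SA, 5.11% higher and 1.11% lower. Both L10 calls held in each of 17 other fits, with log2 fold changes of 1.97 to 2.38 for Zm00001eb049570 and 1.67 to 2.36 for Zm00001eb219490. Same-numbered SA and mock libraries deviated together, though the labels do not say what a replicate number marks. A fit with the number as a block called 5 ribosomal protein genes in place of 2. Over all tested genes it called 2220 in place of 1436, a larger share than 5 of 313. The 3 added ribosomal protein genes were the L18a-like genes Zm00001eb278230 (0.75, adjusted p = 0.0440) and Zm00001eb295940 (-0.94, adjusted p = 0.0368) and the L23 gene Zm00001eb003180 (-0.59, adjusted p = 0.0235). That fit also blocked the Zip1 libraries. With the block and only the 6 libraries of this comparison, the test called 4 ribosomal protein genes and 2060 genes of any kind. The 4 were both L10 genes, Zm00001eb278230 (0.78, adjusted p = 0.0391) and the S4 gene Zm00001eb307230 (-1.03, adjusted p = 0.0496). Zm00001eb295940 and Zm00001eb003180 were not called there.

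**Figure D2:**
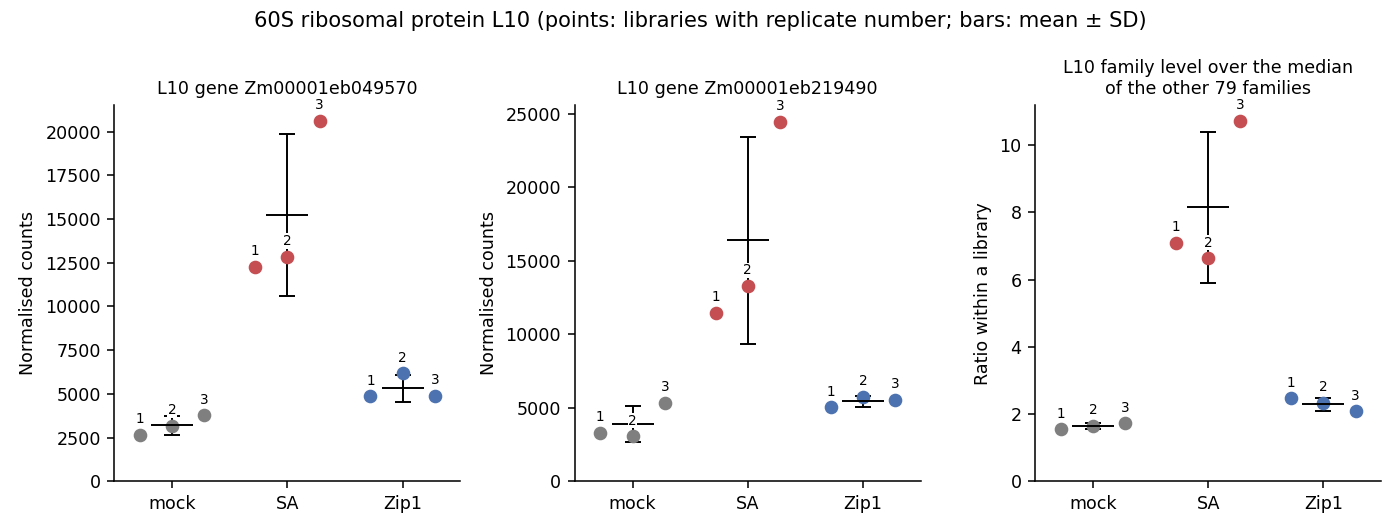
Normalised counts of both expressed L10 genes (left and middle y axes) and the L10 family level divided by the median level of the other 79 families in the same library (right y axis, a ratio), by group (x axis); points are libraries with their replicate number, and bars show the mean ± SD of 3. In every panel the 3 SA libraries lie above the 6 others, and in the ratio panel Zip1 lies above mock without overlap.

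Set against the other ribosomal proteins of its own library, L10 was separated further. The L10 family level was 1.54, 1.64 and 1.73 times the median of the other 79 families in mock, 7.10, 6.63 and 10.7 times in SA, and 2.47, 2.33 and 2.08 times in Zip1. This ratio does not depend on library scaling, and the 3 groups do not overlap in it. With 3 libraries against 3, the smallest 2-sided exact permutation p is 0.1, so no p is given for the ratio. L10 ranked between 8 and 12 of the 80 families in the mock libraries, between 3 and 4 in Zip1, and 1 in every SA library. Its share of all counts in ribosomal protein genes was 3.35%, 3.25% and 3.73% in the mock libraries, 12.95%, 12.69% and 19.25% with SA, and 5.17%, 4.89% and 4.55% with Zip1. SA replicate 3 had the highest value in each of these measures, and the SA calls of both genes held without it.

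Zip1 differed from SA in the same genes. Both L10 genes were lower with Zip1 than with SA, by a log2 difference of -1.52 for Zm00001eb049570 (SE 0.24, adjusted p = 0.00527) and -1.59 for Zm00001eb219490 (SE 0.30, adjusted p = 0.0158). These were the 2 ribosomal protein genes called, beside 4.11% of all tested genes, 1.56% higher and 2.56% lower. The first held in all 17 other fits. The second held in 15 and missed the threshold without Zip1 replicate 1 (adjusted p = 0.0660) and without Zip1 replicate 3 (adjusted p = 0.0626).

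Against mock, Zip1 gave no ribosomal protein gene past the threshold by edgeR's quasi-likelihood test without a block, beside 0.884% of all tested genes, 0.823% higher and 0.0607% lower. At an unadjusted p under 0.05, 8 were higher and 2 lower, where 7.54% and 3.96% of all tested genes were, 11.5% in all. DESeq2 called 1 gene higher, the L18a-like Zm00001eb278230, and edgeR with the block in 6 libraries called 1 lower, the S4 gene Zm00001eb273740. Over all genes DESeq2 called 708 higher and 222 lower, and the block in 6 libraries 393 higher and 76 lower. For L10 gene Zm00001eb049570 the difference was 0.73 (95% interval 0.28 to 1.18, adjusted p = 0.206) and for Zm00001eb219490 it was 0.48 (95% interval -0.10 to 1.06, adjusted p = 0.613). Any 2 of the 3 comparisons share the libraries of a group, so they are not independent of each other.

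**Figure D3:**
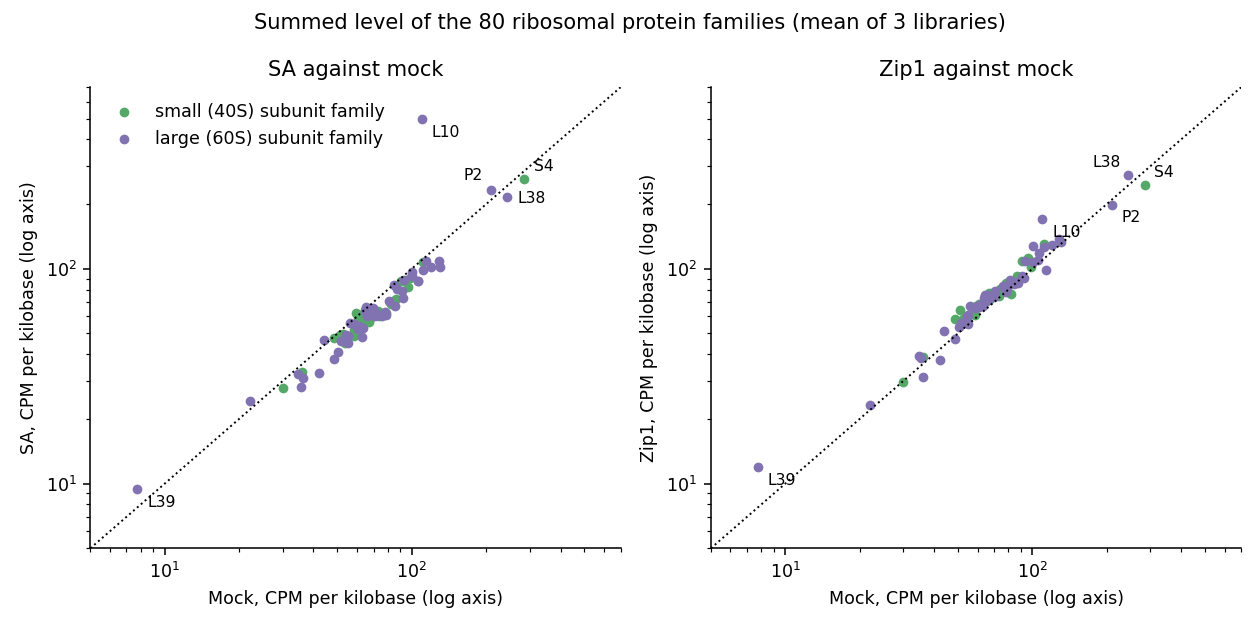
Mean summed level of each of the 80 families in SA (left, y axis) and Zip1 (right, y axis) against mock (x axes), in CPM per kilobase on log axes; points are means of 3 libraries coloured by subunit, and the dotted line marks equal levels. L10 lies far above the line with SA, at 497.8 against 109.8 in mock, while the other families lie along it.

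The remaining 79 families stayed close to their mock levels. With SA their family levels differed from mock by -0.39 (L13a) to 0.28 (L39) on the log2 scale, and 72 of the 79 were below mock. With Zip1 they differed from mock by -0.21 (L18a-like) to 0.62 (L39), and 67 were above mock. Between Zip1 and SA the differences ran from -0.23 (P2) to 0.48 (L13a), with 75 above SA. L13a, a large-subunit protein, had 48.9, 52.0 and 88.6 CPM per kilobase in mock, 45.5, 48.0 and 51.0 in SA and 59.0, 72.4 and 69.7 in Zip1. Mock replicate 3 lay well above the other mock libraries here, and not in L13a alone. In that library 191 of the 203 genes other than L10 with a mean of at least 10 CPM were above their own means. The counts of families above or below mock are therefore not separate observations. L10a, a different protein from L10 despite its name, had a family level of 105.7 ± 9.82 CPM per kilobase in mock, 88.1 ± 12.8 with SA and 110.1 ± 8.49 with Zip1 (SD, n = 3 each), and none of its 5 tested genes was called.

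L39, a short protein that lines the exit tunnel of the ribosome, was the lowest family and came from 1 gene, Zm00001eb192310 (L39-1). It had 149.2, 132.4 and 206.8 normalised counts in mock, 179.9, 163.9 and 247.6 in SA and 207.1, 247.4 and 295.0 in Zip1. The Zip1 libraries were all above the mock libraries, by 207.1 against 206.8 at the nearest. The difference was 0.62 (SE 0.27, adjusted p = 0.418) and did not pass the test.

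By gene, the fold changes of ribosomal proteins lay close to each other. The median log2 fold change of the 313 tested genes was -0.17 with SA, beside -0.04 over all tested genes, and 240 of the 313 were negative. With Zip1 it was 0.10, beside -0.01, and 224 were positive. Between Zip1 and SA it was 0.28, beside 0.01, and 258 were positive. The middle 50% of ribosomal protein genes spanned 0.31, 0.23 and 0.33 log2 units in these comparisons, against 0.65, 0.53 and 0.63 for all tested genes. The median SE of a single ribosomal protein gene was 0.24 in each comparison, so most shifts of this size were not detectable gene by gene. The 205 genes with a mean of at least 10 CPM, which held 93.5% of the counts, had medians of -0.17, 0.11 and 0.29. The 259 tested genes with a ribosomal Pfam domain had medians of -0.18, 0.10 and 0.30. The 54 tested genes without one had -0.06, 0.08 and 0.16.

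**Figure D4:**
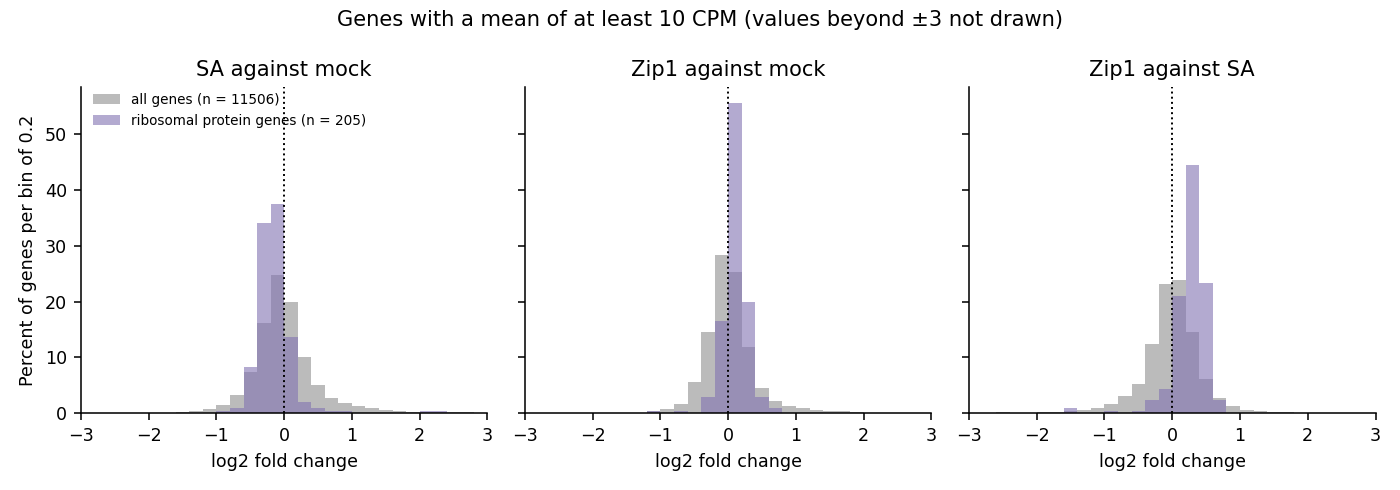
Distribution of log2 fold changes (x axis, bins of 0.2) in the 3 comparisons as the percent of genes per bin (y axis), for 205 ribosomal protein genes and 11506 genes of any kind, all with a mean of at least 10 CPM. The ribosomal protein genes form narrower peaks, at medians of -0.17 in the left panel, 0.11 in the middle and 0.29 on the right, and the 2 L10 genes lie alone near 2 with SA.

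Genes whose 3 libraries of one group lay wholly on one side of the other group were few with SA. With SA, 8 of 313 lay above mock and 27 below, or 2.56% and 8.63%, beside 13.5% and 10.5% of all tested genes. With Zip1, 20 lay above mock and 5 below, or 6.39% and 1.60%, beside 10.3% and 7.35%. Between Zip1 and SA, 70 lay above and 7 below, or 22.4% and 2.24%, beside 11.5% and 12% of all tested genes. At an unadjusted p under 0.05, 46 lay above SA and 4 below it in the Zip1 libraries, where 8.28% and 9.13% of all tested genes were, 17.4% in all. In the fit without a block none of the 46 had an adjusted p under 0.05. The replicate block and DESeq2 each called 5 genes higher with Zip1, beside both L10 genes, which were lower. Over all 23077 tested genes these fits called 679 and 835 higher, a larger share than 5 of 313. L9 gene Zm00001eb379270 (adjusted p = 0.0188 with the block and 0.0165 by DESeq2), S15a-1 gene Zm00001eb199800 (0.0313 and 0.0258), L18-3 gene Zm00001eb282790 (0.0418 and 0.0257) and S4 gene Zm00001eb063980 (0.0361 and 0.0446) were called by both. For SA and mock, 5 were higher and 10 lower at that p, where 11.3% and 7.67% of all tested genes were, 18.9% in all.

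The common shift differed between libraries of the same group. Over the 203 genes with a mean of at least 10 CPM other than L10, the median deviation from each gene's own mean was -0.16, -0.10 and 0.32 log2 units in mock, -0.27, -0.11 and -0.04 in SA, and -0.10, 0.29 and 0.21 in Zip1. Mock replicate 3 and Zip1 replicates 2 and 3 were high, with 191, 194 and 181 of the 203 genes above their own means. In SA replicate 1, 15 of the 203 were. Over all 11506 genes at this level, the median deviation stayed between -0.04 and 0.04 in every library.

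The group medians turned on these libraries. Without mock replicate 3, the median log2 fold change of the ribosomal protein genes was -0.02 with SA, beside -0.02 over all tested genes, and 0.28 with Zip1. Without SA replicate 1 it was -0.11 with SA. Without Zip1 replicate 1, 2 or 3 it was 0.22, 0.01 or 0.07 with Zip1 against mock. Without mock replicate 1 or 2 it was 0.02 or 0.05 with Zip1. Between Zip1 and SA it stayed between 0.19 and 0.40 when any library was left out.

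**Figure D5:**
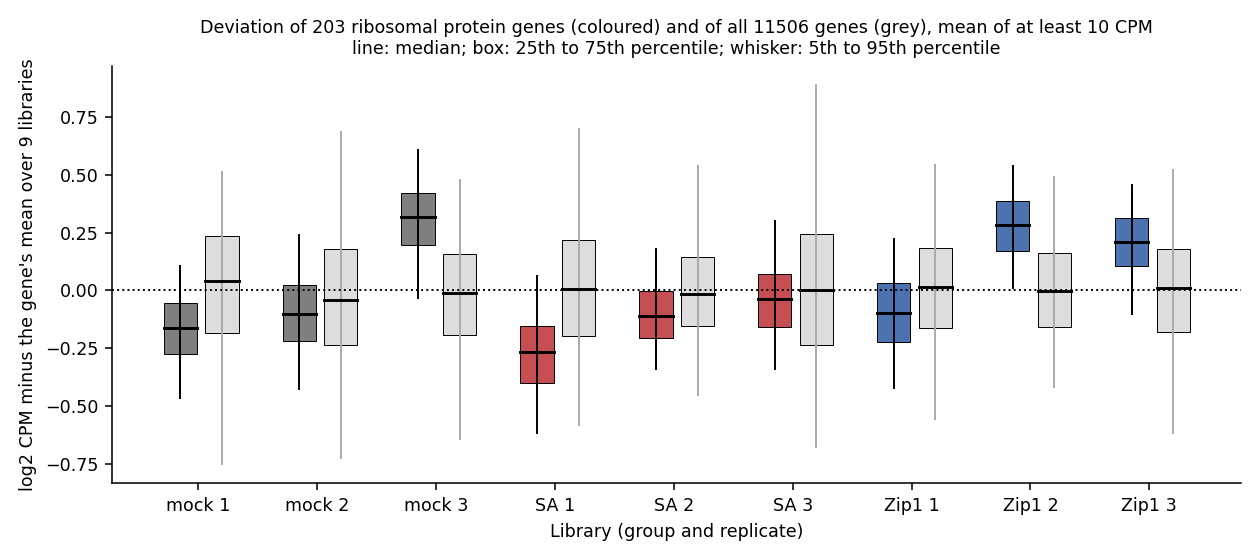
Deviation of log2 CPM from each gene's mean over 9 libraries (y axis) by library (x axis), for 203 ribosomal protein genes other than L10 (coloured by group) and for all 11506 genes with a mean of at least 10 CPM (grey); lines are medians, boxes the 25th to 75th and whiskers the 5th to 95th percentile. Mock 3, Zip1 2 and Zip1 3 have ribosomal protein medians between 0.21 and 0.32, and the grey medians stay near 0.

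The share of each library's counts that fell in ribosomal protein genes shows the same libraries. It was 0.548%, 0.553% and 0.820% in mock, 0.586%, 0.654% and 0.708% in SA, and 0.585%, 0.815% and 0.798% in Zip1. The groups overlap, with means of 0.640% ± 0.156, 0.650% ± 0.0610 and 0.733% ± 0.128 (SD, n = 3 each). Without the L10 genes the means were 0.618%, 0.551% and 0.697%. The TMM scaling factors were also highest in the high libraries, at 1.06 in mock replicate 3 and 1.05 and 1.10 in Zip1 replicates 2 and 3, against 0.91 to 1.01 in the others. Leaf marker CPM was lowest of its group in the first and last of these, at 112400 in mock replicate 3 and 95400 in Zip1 replicate 3. The part of scaling and of leaf composition in the shift was not tested.

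No gene of the stalk proteins was called. Of the 12 stalk genes, 10 were tested. Over all tested genes, 6.22% were called with SA, 0.884% with Zip1 and 4.11% between Zip1 and SA. No call among 10 genes is near those shares. The 8 with at least 1000 counts over all libraries differed by -0.36 to 0.21 with SA, -0.19 to 0.28 with Zip1 and -0.33 to 0.49 between Zip1 and SA (lowest adjusted p over the 10 tested 0.393, 0.680 and 0.144). P2B, the leading one, had 4853, 6685 and 5630 normalised counts in mock, 5709, 6844 and 7271 in SA, and 3920, 6243 and 5642 in Zip1. Its groups overlap, and its SA difference of 0.21 (SE 0.21) lies opposite to the family medians. P0, the base of the stalk, had a leading gene Zm00001eb261840 with 2419, 1906 and 2694 normalised counts in mock, 2094, 1837 and 2123 in SA, and 2343, 2699 and 2904 in Zip1. There the Zip1 libraries were all above the SA libraries, with a difference of 0.39 (adjusted p = 0.246).

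The ubiquitin fusions gave no call either, which for 9 tested genes is also near the shares over all tested genes (6.22%, 0.884% and 4.11%). The list holds 8 genes of S27a and 7 of L40, of which 9 were tested. In the 7 with at least 1000 counts the difference was -0.40 to -0.10 with SA, -0.00 to 0.27 with Zip1 and 0.10 to 0.51 between Zip1 and SA (lowest adjusted p 0.352, 0.802 and 0.247). As a family, L40 had 67.5, 66.8 and 93.5 CPM per kilobase in mock, 56.5, 59.1 and 64.5 in SA and 63.4, 95.1 and 90.5 in Zip1. The SA libraries were all below the mock libraries, while Zip1 replicate 1 was below both the lowest mock and the highest SA library. The S27a genes Zm00001eb044930 and Zm00001eb044940 overlap on opposite strands of chromosome 1. The first had no count and the second had 1, 5 and 0 raw counts in mock, 3, 0 and 5 in SA and 12, 12 and 40 in Zip1, and it was not called (adjusted p = 0.382 for Zip1 against mock).

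The single genes nearest to the threshold were chosen by lowest p, which favours large differences. L18a-like gene Zm00001eb278230 (chromosome 6, 118272236 to 118282056, minus strand), which has no Pfam entry and overlaps 1 other gene, had 261.9, 298.5 and 238.3 normalised counts in mock, 437.8, 477.9 and 428.4 in SA, and 370.7, 439.7 and 567.1 in Zip1. Both treated groups were above all mock libraries. The differences were 0.75 with SA (SE 0.20, adjusted p = 0.0529) and 0.79 with Zip1 (SE 0.20, adjusted p = 0.109). Its call with SA passed the threshold in 5 of 17 other fits.

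L9 gene Zm00001eb379270 (chromosome 9, 29135561 to 29137554, plus strand), also overlapping 1 other gene, had 536.4, 631.7 and 654.8 normalised counts in mock, 358.7, 479.5 and 424.1 in SA, and 558.9, 917.7 and 706.0 in Zip1. L9 is a large-subunit protein. The SA libraries were all below the others, and the difference between Zip1 and SA was 0.79 (SE 0.21, adjusted p = 0.0636). It passed the threshold in 4 of 17 other fits, the replicate block and DESeq2 among them. For 40S ribosomal protein SA gene Zm00001eb109330 (chromosome 2, 218289227 to 218291888, minus strand), counts were 394.5, 581.7 and 553.4 in mock, 499.6, 567.1 and 519.9 in SA, and 586.7, 777.6 and 884.9 in Zip1. Zip1 lay above mock by 0.56 without overlap (SE 0.21, adjusted p = 0.291).

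The families whose genes spread most widely in fold change with SA against mock were S4, L18a-like, S26 and L7. In S4 the values ran from -1.32 to 2.27. The highest, in Zm00001eb206190, was the largest of any ribosomal protein gene, at a mean under 10 CPM. No S4 gene passed without the block. The S26 gene Zm00001eb435560 (-1.69 with SA, adjusted p = 0.451) had 42.8, 9.77 and 40.4 normalised counts in mock and 16.3, 12.2 and 0 in SA. The L7-4 gene Zm00001eb025050 (-1.40, adjusted p = 0.531) had 11.5, 11.9 and 9.85 in mock and 3.25, 0.811 and 8.61 in SA. At such counts a difference of this size could not be told from the spread between libraries. In L18a-like, whose 5 genes all lack a Pfam entry, Zm00001eb295940 had a value of -0.83 with SA (adjusted p = 0.257) beside the 0.75 of Zm00001eb278230 (adjusted p = 0.0529). Neither passed in edgeR's fit over 9 libraries without the block, and both did with it.

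Other parts of the translation machinery gave no call in any comparison. Over all tested genes, 6.22% were called with SA (5.11% higher, 1.11% lower) and 0.884% with Zip1 (0.823% higher, 0.0607% lower). Between Zip1 and SA, 4.11% were (1.56% higher, 2.56% lower). Elongation factors 1 and 2 of the cytosol (24 genes tested of 27) had medians of -0.23 with SA, 0.03 with Zip1 and 0.26 between Zip1 and SA. Chloroplast ribosomal proteins (51 of 111) had -0.30, -0.07 and 0.28. Translation initiation factors (64 of 87) had -0.02, 0.07 and 0.09, ribosome biogenesis factors (64 of 88) 0.09, -0.02 and -0.08, and mitochondrial ribosomal proteins (23 of 44) 0.05, 0.04 and 0.04. The leaf markers (47 of 59) had -0.30, -0.23 and 0.05, with 2 higher calls with SA and 2 with Zip1. The dividing-cell markers (73 of 165) had -0.17, -0.09 and 0.08, with 1 higher and 1 lower call with SA, none with Zip1 and 1 higher call between Zip1 and SA.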

How the data were processed

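Poly-A RNA was sequenced from 9 maize leaf libraries in 3 groups. The authors deposited raw counts per gene; the submitters' processing notes name HISAT2 2.0.5, featureCounts 1.5.0-p3 and DESeq2 1.20.0. How reads mapping to several near-identical genes were counted, the strand setting and the genome build are not given in the sources used here, so reads of near-identical paralogues may have been divided or lost, and family sums are less open to division than single genes. A deposited FPKM table had lost its decimal points and was not used; CPM per kilobase of gene length was computed instead.

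Genes kept by filterByExpr (23077) were tested in edgeR 4.0.16 (R 4.3.3) with TMM factors, a quasi-likelihood fit over all 9 libraries and Benjamini-Hochberg adjustment over all tested genes, at an adjusted p under 0.05. Each SE was derived from the fold change and its F statistic. Normalised counts and CPM use TMM-scaled library sizes; deviations use log2 of CPM + 0.5. Intervals are at 95% by a normal approximation from that SE, which may be too narrow with so few libraries. Alternatives were DESeq2 1.42.0, other scalings, no filter on low counts, a stricter threshold, a replicate block, only the 6 libraries compared, and each library left out; the block with 6 libraries, and the median over genes with a ribosomal Pfam domain, were added after seeing the data. The fit was tested on simulated counts. No 2 libraries of a group agreed within sampling noise. Same-numbered SA and mock libraries deviated together over genes, with r of 0.13 to 0.164 against at most -0.0463 between other numbers. Deviations were taken from group means and cancel within a group. A positive same-number value therefore goes with lower values between other numbers, and these values are not independent. The labels do not say what a replicate number marks, so the test used no block and the block was an alternative. The genes, lists and alternatives were chosen with earlier results of these data known. Genes were named by a fixed rule: called genes or, if under 3, those of lowest p; the 6 highest per kilobase in mock; stalk proteins; ubiquitin fusions; and the 4 families of widest spread with SA. L13a, L39, L40, L10a and the calls added by alternatives were named after their values were seen.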

Additional observations from a re-analysis of the deposited data

How the results depend on the processing

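Of the ribosomal protein genes, 2 were called with SA (5 with the replicate block, 4 with the block in only the 6 libraries compared, 2 to 3 with a library left out). With Zip1 against mock, 0 were called (1 by DESeq2, 1 with the block in 6 libraries, 0 to 0 with a library left out). Between Zip1 and SA, 2 were called (4 with only 6 libraries compared, 7 with the replicate block, 7 by DESeq2, the added 5 all higher in each, 1 at an adjusted p under 0.01, 4 with the block in 6 libraries, 1 to 3 with a library left out). Same-numbered Zip1 and mock libraries correlated at 0.0745 to 0.16, where the highest value between other numbers was 0.0435. For Zip1 and SA these values were 0.0759 to 0.157 and 0.0387. Same numbers thus lay above other numbers in every comparison, though these values are not independent of each other. The labels do not say what a number marks. Counts with and without the block are therefore both given. Over all genes, 1436 were called with SA (2220 with the block, 2449 by DESeq2, 662 at 0.01, 839 to 1414 with a library left out). With Zip1 against mock, 204 were (574 with the block, 930 by DESeq2, 4 at 0.01, 469 with the block in 6 libraries, 0 to 243 with a library left out). Between Zip1 and SA, 949 were (1553 with the block, 2037 by DESeq2, 296 at 0.01, 456 to 960 with a library left out). The cause of these differences was not tested beyond the stricter threshold and the fewer libraries. Per kilobase, ribosomal protein genes held 1.01% of mock, 0.984% of SA and 1.16% of Zip1 counts. The median log2 fold changes ran from -0.24 to -0.02 with SA (without mock replicate 3, -0.016 beside -0.024 over all genes, so the shift below all genes was gone), 0.01 to 0.28 with Zip1 and 0.19 to 0.40 between Zip1 and SA. An alternative on the FPKM values was not run. The biological coefficient of variation between libraries was 34.4%, and genes with few counts carry counting error beside it.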
